A study of Mus musculus with 7 samples.

Results

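The 6 genes described here encode glycoproteins and small proteoglycans of the extracellular matrix: fibronectin (Fn1), thrombospondin 1 (Thbs1), nidogen 1 (Nid1), tenascin C (Tnc), PRELP (Prelp) and lumican (Lum). They were picked by name, out of 9294 genes measured, because of the way their values differed between the fat depots of these arrays. Their depot differences are therefore given as a description with no test. The study compared paracardial fat, which lies beside the heart, with intra-abdominal fat of wild-type male C57 mice, on 4 and 3 Affymetrix microarrays. No treatment and no altered gene distinguished the groups, and no source used here states an age. The labels number the arrays of a depot as biological replicates but do not tie each to an animal of its own, so the p-values below measure only the spread between these samples, which may be technical.

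Fibronectin and thrombospondin 1 are secreted glycoproteins that cells bind through integrins and other surface receptors, and fibronectin fibrils are the scaffold on which much of the interstitial matrix is laid down. Nidogen 1 joins the laminin and type IV collagen networks of basement membranes, the sheets that surround adipocytes and blood vessels. PRELP and lumican are small leucine-rich proteoglycans that bind fibrillar collagen, and PRELP also binds the perlecan of basement membranes. Tenascin C is a large glycoprotein found mainly in developing, wounded or remodelling tissue, where it modulates the attachment of cells to fibronectin.

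Promoter windows of 3 of the 6 genes were at hand from RefSeq (build GRCm38.p6), reaching from 250 bases before a transcription start to 50 bases after it. They are shown because Tnc ran opposite to Nid1 and Prelp between the depots, and capitals mark matches to 6 motifs searched on both strands: the TATA-like string TATANA, the CCAAT box, the GC box core GGGCGG, the SMAD-binding string CAGACA, the TEAD motif CATTCC and the AP-1 motif TGANTCA, the last of which matched in none of them.
Tnc, chr4:64046887-64047186, minus strand: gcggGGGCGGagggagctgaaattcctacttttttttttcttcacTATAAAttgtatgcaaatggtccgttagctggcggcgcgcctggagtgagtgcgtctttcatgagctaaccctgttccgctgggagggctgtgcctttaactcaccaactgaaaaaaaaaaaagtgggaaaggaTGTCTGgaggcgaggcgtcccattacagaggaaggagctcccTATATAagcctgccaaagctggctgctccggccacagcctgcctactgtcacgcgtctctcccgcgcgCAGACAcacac
Nid1, chr13:13437352-13437651, plus strand: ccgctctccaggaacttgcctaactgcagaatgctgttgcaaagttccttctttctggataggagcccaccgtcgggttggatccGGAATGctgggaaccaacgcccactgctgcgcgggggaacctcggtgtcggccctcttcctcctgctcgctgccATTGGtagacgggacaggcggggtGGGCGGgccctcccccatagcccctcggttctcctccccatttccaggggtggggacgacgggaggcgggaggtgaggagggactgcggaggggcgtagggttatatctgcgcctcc
Prelp, chr1:133921352-133921651, minus strand: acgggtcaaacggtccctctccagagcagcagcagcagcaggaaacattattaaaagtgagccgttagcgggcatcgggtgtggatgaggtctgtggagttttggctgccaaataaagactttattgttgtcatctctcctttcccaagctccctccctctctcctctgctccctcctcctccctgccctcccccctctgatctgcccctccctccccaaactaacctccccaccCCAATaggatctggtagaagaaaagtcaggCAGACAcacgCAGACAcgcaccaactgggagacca

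The Tnc window held a TATANA match from 29 to 24 bases before the start, where a TATA box usually lies, and another 205 bases before it, whereas the Nid1 and Prelp windows held none. The match nearer the start reads on both strands. TATANA occurred in 24.7% of all 32851 such windows of the genome. GGGCGG was found in the Tnc and Nid1 windows and in 35.7% of all windows. CCAAT was found in the Nid1 and Prelp windows and in 37.4% of all windows. CAGACA was found in the Tnc and Prelp windows and in 21% of all. CATTCC was found in the Nid1 window and in 14.7% of all windows, and TGANTCA in 7.81% of all. A second annotated Tnc start, whose window begins at position 64046966, shared most of these bases and held the GC box core and the SMAD-binding string. Its only TATA-like match lay from 126 to 121 bases before that start, and not where a TATA box usually lies. The motifs were picked with the windows in view, and a match is a string of letters and not evidence of binding.

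The deposited values are on a log2 scale whose upper end lies between 19.81 and 19.93 on every array, and differences below are log2 differences on that scale. Paracardial array 4 and intra-abdominal array 3 had the highest upper end, and are set apart below as the pair with the higher ceiling. None of the 6 genes came within 1.48 of an array's ceiling, each was measured by 1 probe, and no filter on low values was applied, so all 6 are accounted for. Of 11949 probes, 635 shared all their values with another probe, but no probe of the 6 genes did. Some other genes repeated a value between arrays. Col14a1 read 6.54 on paracardial arrays 3 and 4 and intra-abdominal array 1, and Nkain4 read 5.60 on all 3 intra-abdominal arrays. The reason is unknown, and the SE and p-values of such genes include the repeated values. The tissue labels were compared with cell type markers. On the paracardial arrays the median of 12 adipocyte markers was 5.97, 6.24, 9.44 and 9.70, against medians over all probes of 6.005 to 6.37, while on the intra-abdominal arrays it was 14.27, 14.61 and 16.20. Of these 12 markers 8 were lower in paracardial fat and 0 higher (limma, Benjamini-Hochberg adjusted p under 0.05; 12 lower and 0 higher at an unadjusted p under 0.05). Markers of thymocytes and of thymic epithelium ran the other way, with 3 of 6 and 6 of 10 higher in paracardial fat. At an unadjusted p under 0.05 in limma, 6 of 6 and 10 of 10 were higher. Over all genes tested, 6.25% were higher and 2.91% lower at the adjusted threshold. The thymocyte median was 11.84, 11.10, 12.78 and 14.17 on the paracardial arrays and 9.74, 6.11 and 5.30 on the intra-abdominal ones. That of thymic epithelium was 9.67, 9.16, 10.77 and 10.87, and 7.96, 6.12 and 5.30. Paracardial fat is therefore used below as the label of the samples, and whether they held thymic tissue was not tested. These arrays measure whole tissue, so fewer cells of a type and less RNA per cell cannot be told apart.

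**Figure D1:**
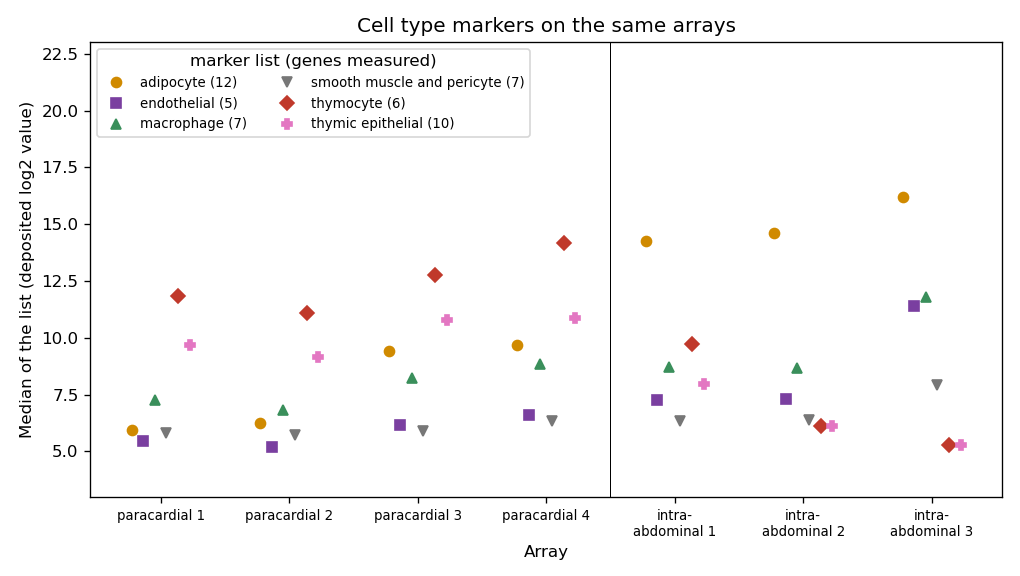
Median deposited log2 value of the measured genes of 6 marker lists on each of the 7 arrays, with the number of genes of each list in the legend. Adipocyte medians lie between 5.97 and 9.70 on the paracardial arrays and between 14.27 and 16.20 on the intra-abdominal arrays, and thymocyte medians lie between 11.10 and 14.17 and between 5.30 and 9.74.

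All but 1 of the 6 genes had their lower values in paracardial fat and Tnc, the exception, had its higher values there. No paracardial array fell within the intra-abdominal range for any of the 6, which also held for 26.7% of all genes tested, 18% with the higher and 8.78% with the lower values in paracardial fat. Because the genes were chosen on this contrast, nothing is read from that count.

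Fibronectin (Fn1), the glycoprotein from which fibroblasts and other cells assemble pericellular fibrils, read 7.91, 8.60, 10.65 and 9.69 in paracardial fat and 13.60, 12.73 and 14.62 in intra-abdominal fat, given here and below in the order of the array numbers. Every paracardial value lay below every intra-abdominal one, with 2.08 between the nearest arrays. The means were 9.21 ± 1.21 (SD, n = 4) and 13.65 ± 0.95 (SD, n = 3), a difference of -4.44. It was -4.11 among the 5 arrays with the lower ceiling and -4.93 between the pair with the higher one.

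Thrombospondin 1 (Thbs1), a ligand of the receptors CD36 and CD47 that can also activate latent TGF-beta, read 6.98, 8.09, 6.61 and 6.29 in paracardial fat. The paracardial arrays were close to one another, and all lay below the intra-abdominal readings of 9.62, 13.38 and 12.17. The means were 6.99 ± 0.78 (SD, n = 4) and 11.72 ± 1.92 (SD, n = 3), a difference of -4.73. The intra-abdominal arrays of this gene spread over 3.75, more than those of any other of the 6, because array 1 read well below arrays 2 and 3.

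Nidogen 1 (Nid1), the linker of basement membranes, read 5.70, 5.63, 8.46 and 9.45 on the paracardial arrays and 14.74, 15.18 and 16.75 on the intra-abdominal ones. The gap of 5.29 between the nearest arrays of the depots was wider than the spread within either depot, which was 3.82 and 2.01. The means were 7.31 ± 1.94 (SD, n = 4) and 15.56 ± 1.06 (SD, n = 3), a difference of -8.25, the 12th most negative of the 9294 genes. Paracardial arrays 1 and 2 were low and arrays 3 and 4 higher, a split wider than that of Fn1.

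Prelp, the proteoglycan gene with the widest depot difference of the 6, read 7.19, 7.63, 9.83 and 11.82 on the paracardial arrays and 17.33, 17.47 and 18.45 on the intra-abdominal ones. The paracardial readings were spread over 4.63, whereas the intra-abdominal ones lay within 1.11 of each other. The means were 9.12 ± 2.14 (SD, n = 4) and 17.75 ± 0.61 (SD, n = 3), a difference of -8.63, the 4th most negative of all genes. It was -9.19 among the arrays with the lower ceiling, -6.63 between the pair with the higher ceiling, and -6.92 without paracardial arrays 1 and 2.

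Lumican (Lum), which regulates the assembly and spacing of collagen fibrils, read 6.23, 6.05, 6.99 and 7.55 on the paracardial arrays and 8.42, 8.49 and 12.02 on the intra-abdominal ones. The depots were separated by 0.87, the narrowest gap of the 6 genes, and intra-abdominal array 3 stood far above the other two. The means were 6.71 ± 0.70 (SD, n = 4) and 9.64 ± 2.06 (SD, n = 3), a difference of -2.94. Without intra-abdominal array 3 the difference was -1.75, so that 1 array carried much of its size. On the same array the medians of several marker lists were also highest, at 8.08 against 5.78 and 5.97 for fibroblasts and preadipocytes, 11.40 against 7.26 and 7.30 for endothelium, 11.80 against 8.70 and 8.67 for macrophages, 7.93 against 6.34 and 6.39 for smooth muscle and pericytes and 16.20 against 14.27 and 14.61 for adipocytes. Their part in the Lum value was not tested.

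Tenascin C (Tnc) read 9.65, 9.41, 10.64 and 9.92 on the paracardial arrays and 7.24, 5.77 and 6.34 on the intra-abdominal ones. All 4 paracardial readings lay above all 3 intra-abdominal ones, with 2.17 between the nearest arrays. The means were 9.91 ± 0.53 (SD, n = 4) and 6.45 ± 0.74 (SD, n = 3), a difference of 3.45, which ranked 192nd from the most positive of the 9294 genes. The difference was 3.39 among the arrays with the lower ceiling and 3.58 between the other pair, and leaving out any 1 array gave 3.11 to 3.85. Its paracardial arrays were the least spread of the 6 genes, over 1.22.

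**Figure D2:**
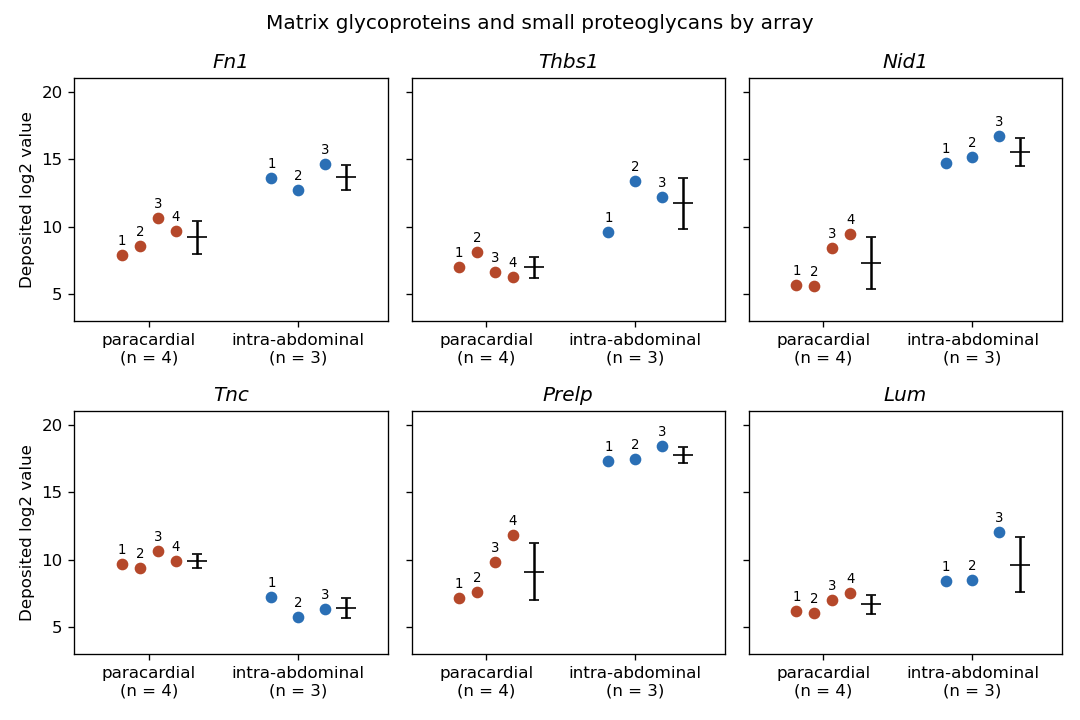
Deposited log2 value of each of the 6 genes on every array, with the array number beside each point and the mean ± SD of each depot as a black bar. Tnc is the 1 gene whose paracardial arrays (9.41 to 10.64) lie above its intra-abdominal arrays (5.77 to 7.24), and Lum has the narrowest gap between the depots (0.87).

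To set Tnc against the other 5 without comparing the brightness of different probes, each gene was centred on its own mean over the 7 arrays. Centred in this way Tnc was at 1.23, 0.99, 2.21 and 1.49 on the paracardial arrays and at -1.19, -2.65 and -2.08 on the intra-abdominal ones. The median of the other 5 was at -3.20, -2.52, -2.39 and -1.39 on the paracardial arrays and at 2.48, 4.34 and 4.05 on the intra-abdominal ones. Tnc was thus above its own mean on every paracardial array and below it on every intra-abdominal array, and the median of the others did the reverse. The depot difference of Tnc exceeded the median depot difference of the other 5 (-4.73) by 8.18, and by 7.67 to 9.63 over 16 alternative fits. The direction of this contrast follows from the choice of genes and is no finding.

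**Figure D3:**
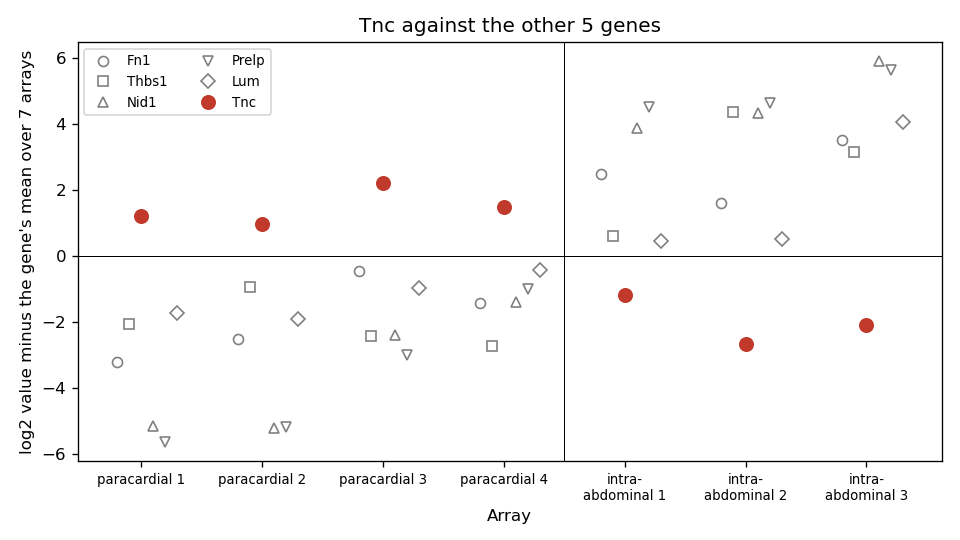
log2 value of each gene minus its mean over all 7 arrays, by array, with Tnc as filled red points and the other 5 genes as open grey symbols. Tnc lies between 0.99 and 2.21 on the paracardial arrays, where the other 5 lie below 0, and between -2.65 and -1.19 on the intra-abdominal arrays, where the other 5 lie above 0.

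Within the depots the 6 genes did not follow one pattern. With each gene taken relative to its mean in the same depot, Nid1 and Prelp ran closest together of the 15 pairs. Their mean absolute difference was 0.36 over the 7 arrays. Next came Fn1 and Tnc at 0.64, against 0.74 for Fn1 and Lum and 1.13 for the proteoglycans Prelp and Lum. Thbs1 was farthest from the others, at 1.35 to 1.84. In paracardial fat Fn1, Nid1, Prelp, Lum and Tnc all read lower on arrays 1 and 2 than on arrays 3 and 4. So did the medians of adipocyte, thymocyte and thymic epithelial markers, and of every other measured list except cardiac and skeletal muscle. Thymocyte medians, for instance, were 11.84 and 11.1 against 12.78 and 14.17. Thbs1 was lowest on arrays 3 and 4. Relative to the paracardial mean, Prelp was at -1.93, -1.49, 0.72 and 2.70, while Thbs1 was at -0.02, 1.10, -0.38 and -0.70. Among the intra-abdominal arrays Tnc was highest on array 1, where Thbs1, Nid1, Prelp and Lum were lowest. Fn1 was lowest on array 2. On intra-abdominal array 1 the thymocyte median was also highest, at 9.74 against 6.11 and 5.30, as was the thymic epithelial median, at 7.96 against 6.12 and 5.30. Between arrays 2 and 3 the orders differed, as Tnc rose from 5.77 to 6.34 while both medians fell. The part of these cells in the Tnc value was not tested.

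The genes whose centred profile lay nearest to that of Tnc, by the mean absolute difference over 7 arrays, were the gene models Gm9078 (0.16), Gm3160 (0.23) and Gm3307 (0.25), the histone gene H2ac1 (0.29) and the immunoglobulin kappa segment Igkv6-13 (0.31). No matrix gene was among these 5. Nearest to the median profile of the other 5 genes were the caveolar protein gene Cav2 (0.47), the dystrophin-associated protein gene Sntb1 (0.48), the adhesion molecule gene Mcam (0.49), the activin receptor gene Acvr1c (0.49) and the membrane protein gene Emp1 (0.53). Cav2, for instance, read 5.64, 6.02, 7.07 and 7.75 in paracardial fat and 11.86, 12.85 and 14.22 in intra-abdominal fat. Likeness over 7 arrays of 2 depots is a description, and much of it is the depot difference itself.

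Related matrix genes were taken from 8 lists by role, with the 6 genes left out, and tested in the fit across all genes. The lists were written with earlier results of these data known, so their comparison with all genes is not an independent one. Of 228 listed genes 72 were measured, that is, had a probe that carried their symbol alone. The rest had no such probe among the deposited values, so nothing is known of them here. Of the 72, 16 were lower in paracardial fat, 0 were higher and 56 did not pass (limma, Benjamini-Hochberg adjusted p under 0.05 over all genes). At an unadjusted p under 0.05, 42 had the lower and 2 the higher values. Over all genes tested 9.16% passed, 2.91% lower and 6.25% higher; that split shifted with the scaling, from 581 higher and 270 lower genes to 512 and 530 after cyclic loess, while the related genes had 0 higher under every scaling tried. The median difference of the 72 was -1.22 and that of all genes 0.133. The 56 include 49 with a negative difference, which did not pass.

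**Figure D4:**
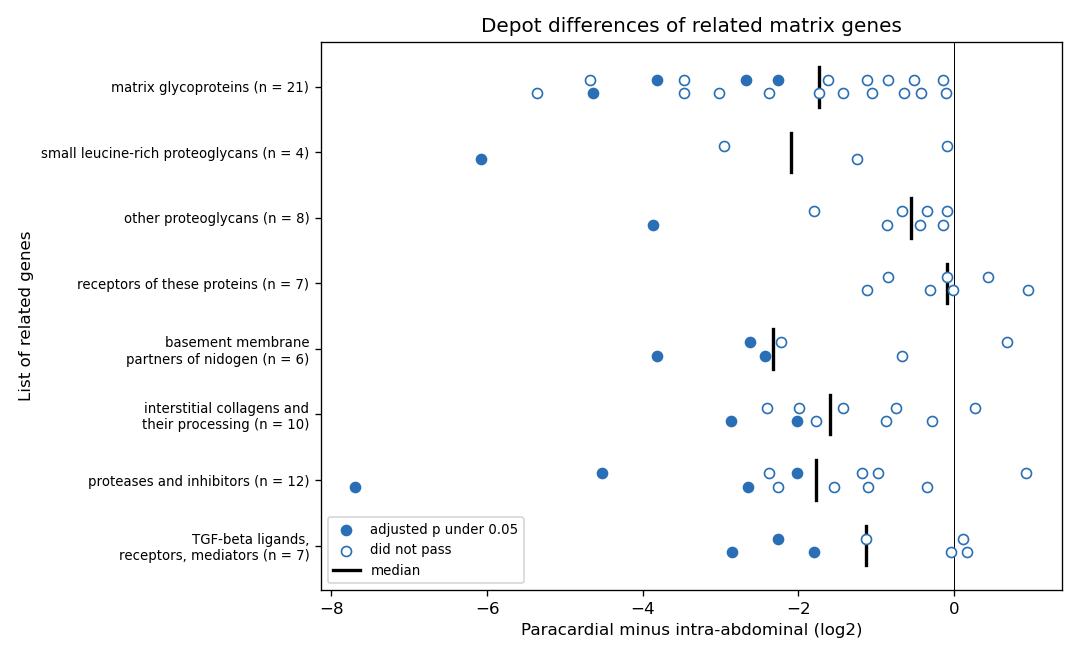
Paracardial minus intra-abdominal log2 difference of each measured gene in 8 lists of related genes, filled where the limma adjusted p was under 0.05 and open where it was not, with the list median as a black line. The filled points all lie below 0, and the list medians run from -2.33 (basement membrane) to -0.10 (receptors). A gene in more than 1 list is drawn in each.

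Among the other matrix glycoproteins 4 of 21 were lower, 0 were higher and 17 did not pass, with a median difference of -1.74. They include paralogs of Nid1 and Tnc. Nidogen 2 (Nid2), the second basement membrane linker, differed by -3.81 ± 0.72 (SE; limma adjusted p = 0.0255), in the same direction as Nid1. Tenascin X (Tnxb), a tenascin of connective tissue collagen, read 4.86, 4.88, 5.96 and 5.46 in paracardial fat and 7.01, 7.51 and 9.37 in intra-abdominal fat, a difference of -2.67 ± 0.60 (limma adjusted p = 0.0425). It was thus lower on every paracardial array, the opposite order to Tnc. The fibulin gene Efemp1 differed by -4.64 ± 1.01 (limma adjusted p = 0.0383). Thrombospondin 2 (Thbs2), the paralog of Thbs1, had a difference of -1.62 and did not pass (adjusted p = 0.16); it is named outside the selection rule.

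Of 4 further small leucine-rich proteoglycans, 1 was lower and 3 did not pass, with a median difference of -2.10. Osteoglycin (Ogn) read 6.17, 5.78, 10.23 and 10.42 in paracardial fat and 13.78, 12.98 and 15.93 in intra-abdominal fat, a difference of -6.08 ± 1.45 (limma adjusted p = 0.0492). As for Prelp, paracardial arrays 1 and 2 read lower than arrays 3 and 4. Of 8 other proteoglycans 1 was lower, the glypican Gpc4 (-3.87 ± 0.41, limma adjusted p = 0.00818), a heparan sulfate proteoglycan of the cell surface, and the median of that list was -0.56.

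Basement membrane partners of nidogen were lower in 3 of 6 cases, with 3 not passing and a median of -2.33. Beside Nid2 these were the laminin chains Lamb2 (-2.63 ± 0.42, limma adjusted p = 0.0178) and Lamb1 (-2.43 ± 0.49, 0.0296). The laminin chain Lama3, of epithelial basement membranes, had the opposite sign and did not pass: it read 5.78 to 6.03 in paracardial and 5.12 to 5.44 in intra-abdominal fat, a difference of 0.67 (limma adjusted p = 0.0631), and was named after its values were seen. Interstitial collagens and the proteins that process and cross-link them were lower in 2 of 10 cases (median -1.60). These were the cross-linking enzyme Loxl1 (-2.87 ± 0.50, limma adjusted p = 0.0207) and the collagen chaperone Serpinh1 (-2.01 ± 0.47, 0.0472), while the chains Col5a1, Col5a3, Col6a2 and Col14a1 did not pass.

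Proteases of the matrix and their inhibitors were lower in 4 of 12 cases, with a median of -1.78. Adamts5, a protease that cuts large proteoglycans, read 4.68, 4.95, 5.85 and 7.63 in paracardial fat and 12.18, 12.20 and 16.06 in intra-abdominal fat, a difference of -7.70 ± 1.17 (limma adjusted p = 0.0153). The serine protease Htra3 (-4.52 ± 0.74, limma adjusted p = 0.0181) and the plasminogen activator Plau (-2.65 ± 0.56, 0.0350) were lower too. The fourth was Adamts1 (adjusted p = 0.0443), named after its values were seen. Ligands, receptors and mediators of TGF-beta, a growth factor that induces matrix genes and that Thbs1 can activate, were lower in 3 of 7 cases (median -1.13): Gdf10 (-2.85 ± 0.65, limma adjusted p = 0.0445), the latent TGF-beta binding protein Ltbp3 (-2.26 ± 0.39, 0.0197) and the ligand Tgfb3 (-1.80 ± 0.32, 0.0209). Tgfb1 and Tgfb2 did not pass.

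None of 7 receptors passed with limma (2 lower and 1 higher at an unadjusted p under 0.05), and their median difference was -0.10. The largest difference was that of the fibronectin receptor subunit Itga5 (-1.12 ± 0.36, limma adjusted p = 0.109). Ptprz1, a receptor phosphatase that binds tenascin C, had a difference of 0.95 (limma adjusted p = 0.119) and was named after its values were seen. Its paracardial arrays read 5.58 to 6.48 and its intra-abdominal arrays 4.63 to 5.58, without overlap by a margin of 0.0065.

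The calls among related genes depended on single arrays. Of the 15 genes named above by rule that passed, 1 kept its call without paracardial array 1 (Gpc4), 2 without array 2 (Gpc4 and Adamts5), 7 without array 3, 7 without array 4, 11 without intra-abdominal array 1, 4 without array 2 and 11 without array 3. Without paracardial arrays 1 and 2 together, the paracardial arrays with the lowest adipocyte and thymocyte medians, none of the 72 passed with limma. Of the 72, 21 were at an unadjusted p under 0.05. List medians leaned on intra-abdominal array 3: without it they were -1.08 for the glycoproteins, -0.35 for the other proteoglycans, -0.74 for the interstitial collagens and their processing, -0.99 for the proteases and -0.67 for the TGF-beta genes. The difference of Ogn was -3.91 without paracardial arrays 1 and 2, and the median of the TGF-beta genes -0.44. The receptor median lay so near 0 that it turned positive without paracardial array 1 (0.017).

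Markers of other cell types of fat are given beside these groups. Fibroblast and preadipocyte markers were measured for 4 of 16 genes, of which none passed with limma (1 lower and 0 higher at an unadjusted p under 0.05). As the log2 of their summed linear values they ranged from 7.51 to 11.98 in paracardial and from 12.14 to 17.85 in intra-abdominal fat. The scale has no zero at which a marker could be called absent. On the intra-abdominal arrays that sum (12.14, 12.46 and 17.85) was almost only Dpt, which read 12.1, 12.42 and 17.85. Dpt differed by -5.36, against -0.109 for Pi16, -1.001 for Clec3b and -1.43 for Mfap5. Dpt and Mfap5 are also among the matrix glycoproteins tested above, so this sum is no separate measure of fibroblasts. The log2 of the summed linear values was 9.72 to 15.53 and 18.75 to 19.93 for adipocyte markers. It was 7.69 to 9.66 and 13.12 to 15.90 for 5 endothelial markers, of which 2 were lower. It was 8.73 to 9.30 and 10.66 to 14.79 for 7 smooth muscle and pericyte markers and 10.58 to 14.90 and 12.39 to 17.17 for 7 macrophage markers, none of which passed (3 and 2 lower at an unadjusted p under 0.05). For 5 mesothelial markers it was 8.23 to 9.19 and 8.49 to 9.72, with none at an unadjusted p under 0.05. In the direction of Tnc, the sum was 16.79 to 19.78 and 9.54 to 16.19 for thymocyte markers and 14.03 to 15.62 and 8.69 to 11.22 for thymic epithelial markers. Both measured cell cycle genes were higher, and none of 4 brown adipocyte, 4 lymph node and thymic stromal or 2 muscle genes passed with limma (1 stromal gene lower and 0 of the others at an unadjusted p under 0.05). Single paracardial arrays nevertheless stood apart. The brown adipocyte sum was 7.35, 7.29, 7.89 and 14.02 in paracardial fat and 7.21 to 7.90 in intra-abdominal fat. Ucp1 read 13.92 on paracardial array 4, against 4.61, 4.99 and 6.14 on arrays 1 to 3. The lymph node and thymic stromal sum was 8.24, 8.26, 11.56 and 13.07 in paracardial fat and 8.77 to 9.91 in intra-abdominal fat. The part of any of these cell types in the values of the 6 genes was not tested.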

How the data were processed

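The authors deposited log2 values, 1 for each probe on each array. The submitters' processing notes name RMA and the Affymetrix Expression Console without versions, and the background correction and build were not given in the sources used here. That the unit is log2 was read from the values and the named method, and the reason for the ceiling and the centring stay unknown. Depth does not apply to arrays; their number limits the precision, and signal over background is unknown. Of 11949 probes, 9352 carried exactly 1 gene symbol, 522 several and 2075 none. Symbols were updated through the Entrez identifiers of 5789 probes that matched RefSeq. The probe with the highest mean was kept for 52 genes with several, leaving 9294 genes.

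Each depot difference subtracts the intra-abdominal from the paracardial mean. It was fitted in R 4.3.3 by limma, version 3.58.1 (lmFit with eBayes, two-sided, no covariate, all 7 arrays, 5 residual and 1.68 prior degrees of freedom), adjusted by Benjamini-Hochberg over all genes with a threshold of 0.05. The fit was tested on simulated data. The 6 genes and the lists were chosen with earlier results of these data known. Named genes were the 6, the 5 nearest to Tnc and the 5 nearest to the median of the others, and up to 3 genes past the threshold with the largest difference in each list, or the 1 largest where none passed. Alternatives were filters on dim genes, renormalization, other variance models, blocks, probe averaging and left-out arrays. Tables and figures were made in Python 3.11.15 (pandas 2.3.3, numpy 2.4.6, matplotlib 3.10.9).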

Additional observations from a re-analysis of the deposited data

Results flagged for a closer look

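Among 33 genes and profiles examined, 2 had 1 paracardial array far from the other 3 by Dixon's criterion for 4 samples, and chance marks about 1 in 20 groups. Both are among the genes nearest in profile to Tnc. Gm3160 read 12.29 on paracardial array 2, with the next array at 13.04, and Gm3307 read 11.93 on the same array, with the next at 12.75. None of the 6 matrix genes had such an array. Groups of 3 arrays were not examined in this way.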

How the results depend on the processing

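The depot differences of the 6 genes kept their direction in all 16 alternatives that can change them, those with 1 array left out included. The ranges were -5.54 to -3.48 for Fn1, -5.78 to -3.90 for Thbs1, 3.11 to 3.85 for Tnc, -9.32 to -6.60 for Nid1 and -3.58 to -1.75 for Lum. Prelp moved from -8.63 to -6.92 without paracardial arrays 1 and 2. The Tnc contrast ranged from 7.91 to 9.63 over left-out arrays. Genes past the threshold numbered 851, and 3614 with array weights (whose estimation stopped before it converged), 1654 with the pair of arrays of the higher ceiling as a block, 1 without paracardial arrays 1 and 2 (1751 at an unadjusted p under 0.05) and 185 (intra-abdominal array 2 left out) to 833 (intra-abdominal array 3) over left-out arrays. Of 72 related genes 16 passed, against 49 with array weights, 36 with that pair as a block, 25 after cyclic loess, 0 without paracardial arrays 1 and 2 and 1 (paracardial array 1 left out) to 17 (intra-abdominal array 3) over left-out arrays. Higher related genes numbered 2 with array weights, 1 with the block and 1 with eBayes with trend and robust fitting. The split was 581 higher and 270 lower, 432 and 416 after quantile normalization and 512 and 530 after cyclic loess. The median difference of all genes was 0.133 as deposited and -0.0052 after centring on array medians. The receptor list's median turned to 0.0251 without paracardial arrays 1 and 2 and to 0.0169 without paracardial array 1, and over left-out arrays it ranged from -0.313 to 0.0169. With the replicate block, 0 genes and 0 related genes passed in limma (2134 and 45 at an unadjusted p under 0.05). That fit has fewer residual degrees of freedom than the main one. Paracardial array 4 has no intra-abdominal array of its number, so it does not enter the block's differences. The Prelp difference, for instance, was -9.53 both with the block and without paracardial array 4. The count with the block is therefore no measure of pairing. Same-numbered arrays deviated from their depot means with correlations of 0.0479, 0.0474 and -0.50, and different-numbered arrays with correlations of -0.379 to 0.49. These values show no pairing by number, but so few arrays cannot exclude it. The cause of these changes was not tested.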
